A study of Mus musculus with 12 samples.

Results

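Galectins, S100 proteins and annexins are families of small proteins that bind sugars or calcium, and 10 of their genes that T cells can express were followed across 4 populations of splenic CD4 T cells: Lgals1, Lgals3, S100a4, S100a6, S100a10, S100a11, S100a13, Anxa1, Anxa2 and Anxa6. The genes were taken by name, with earlier results of these data known. Every probe set that the platform annotation ties to 1 of these symbols alone was kept. This gave 18 of the 34945 probe sets with a single symbol, and 9 of the 18193 genes. S100a11 is annotated only on a probe set that also carries other symbols, so no value is given for it.

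The cells came from spleens of female MRL/Faslpr mice, a lupus-prone strain in which every group carries the lpr allele of the death receptor gene Fas. All were gated as TCRb+ CD4+ B220-. Aged mice of 16 to 24 weeks gave 3 CD44+ (antigen-experienced) populations, split by CD62L, the lymph node homing receptor, and by PSGL1, a selectin ligand encoded by Selplg. CD62Llo PSGL1lo cells, called PSGL1lo cells from here on, were low in both, CD62Llo PSGL1hi cells were low in CD62L alone, and CD62Lhi PSGL1hi cells were high in both. Naive cells, CD62Lhi CD44lo, came from young mice of 6 to 8 weeks, so population and age cannot be told apart wherever naive cells are one side. There were 3 Affymetrix Mouse Genome arrays for each population. The titles call these technical replicates and the design text speaks of independent sorts, so a p-value here covers the scatter among these arrays and no more. The description of the CD62Llo PSGL1hi arrays names a different gate, and titles and design text were followed.

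Galectins are lectins that bind galactose-containing sugar chains on surface glycoproteins; galectin-1 and galectin-3 act outside the T cell on its receptors and, for galectin-3, also inside it. S100 proteins are small calcium sensors with EF-hand domains that attach to cytoskeletal and membrane proteins, and most of their genes lie in 1 cluster. Annexins bind membrane phospholipid when calcium is present, and S100A10 forms a complex with annexin A2 at the inner face of the membrane.

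Each value is a ratio of a probe set to its own median over the 12 arrays, so it compares arrays for 1 probe set and says nothing about how abundant 1 gene is beside another. Differences are on the log2 scale ± SE from limma, with Benjamini-Hochberg adjustment over all 45037 probe sets, and a difference was called at an adjusted p under 0.05. Array medians ran from 0.967 to 1.022, and the median SD over probe sets was 0.105 in naive cells and 0.151 in PSGL1lo cells. The gates were visible in the RNA: the mean log2 ratio of Cd44 was -3.66 in naive cells and between -0.21 and 0.34 in the CD44+ populations, and that of Selplg was -2.92 in PSGL1lo cells and between -0.02 and 0.13 in the other populations. In sorted bulk samples, fewer cells expressing a gene and less of its RNA per cell cannot be told apart.

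The 9 genes fell into 3 patterns. Lgals1 was low in naive cells, with no difference called among the CD44+ populations. Lgals3, the 4 S100 genes and Anxa2 were lowest in naive cells, low or intermediate in PSGL1lo cells and highest in the PSGL1hi populations. For S100a10 and S100a13, PSGL1lo and naive cells were not called different. Anxa1 and Anxa6 were lower in PSGL1lo cells than in naive cells. The F test over the 4 populations called 16 of the 18 probe sets, against 23.7% of all probe sets; the exceptions were 1444016_at of Anxa1 and 1437691_at of Anxa2.

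**Figure D1:**
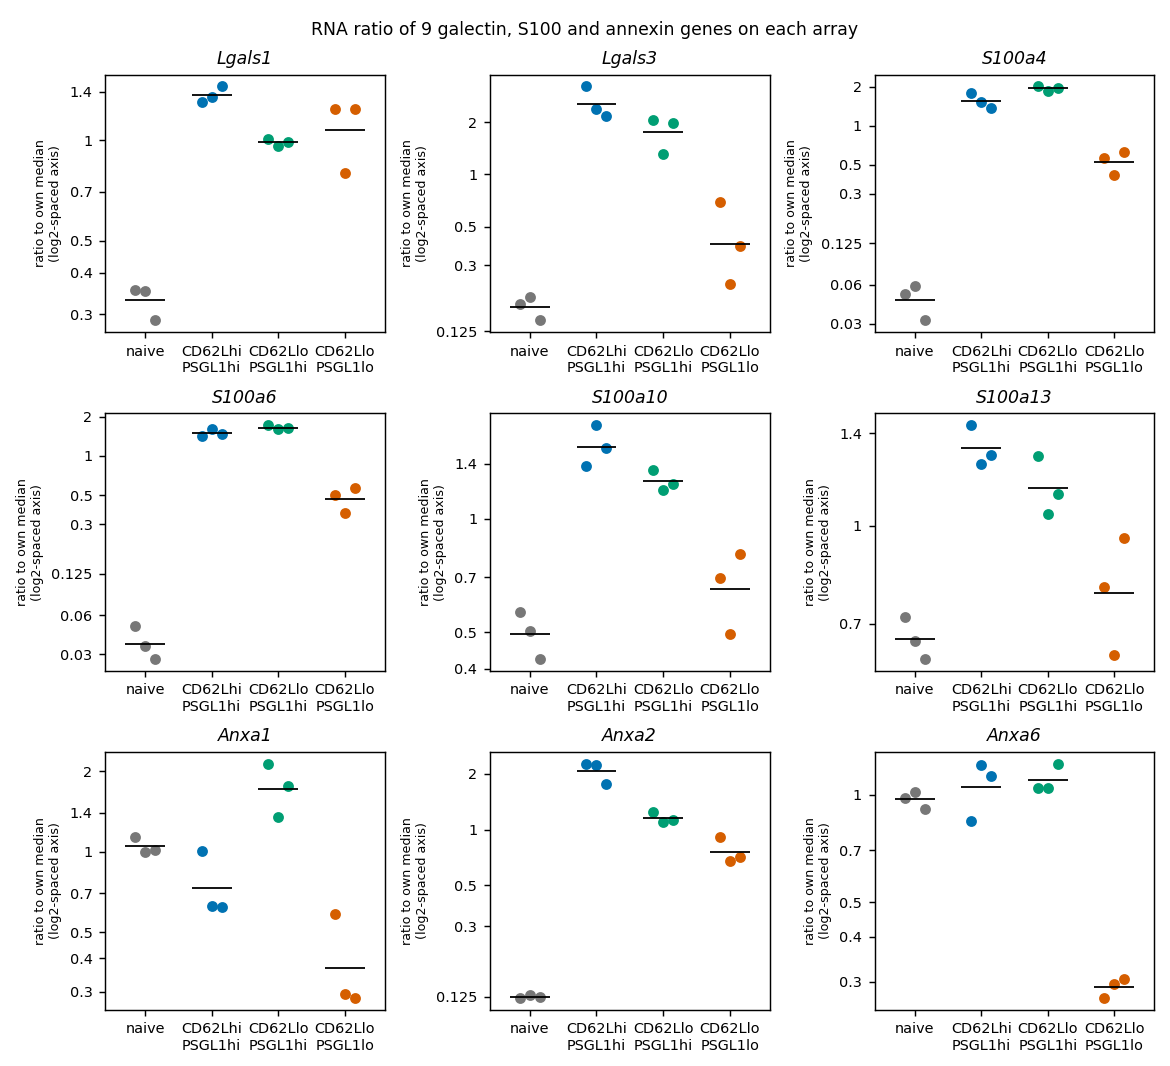
Ratio of each gene's main probe set to its own median over 12 arrays (y axis, log2-spaced), in naive, CD62Lhi PSGL1hi, CD62Llo PSGL1hi and PSGL1lo cells. Points are arrays and lines are the mean of the log2 values (n = 3). Lgals1 is low in naive cells alone, whereas Anxa6 is low in PSGL1lo cells alone.

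Galectin-1 RNA was higher in all CD44+ populations than in naive cells, and no difference with PSGL1 was called. On 1419573_a_at, Lgals1 had ratios of 0.356, 0.352 and 0.288 in naive cells, 1.305, 1.352 and 1.455 in CD62Lhi PSGL1hi cells, 1.009, 0.964 and 0.991 in CD62Llo PSGL1hi cells, and 1.242, 0.8 and 1.245 in PSGL1lo cells. Every array of the CD44+ populations lay above every naive array, and PSGL1lo and CD62Llo PSGL1hi arrays overlapped. Lgals1 was 3.25-fold higher in PSGL1lo than in naive cells (log2 1.70 ± 0.15, adjusted p = 1.21e-06), 2.99-fold higher in CD62Llo PSGL1hi cells (adjusted p = 3.52e-06) and 4.14-fold higher in CD62Lhi PSGL1hi cells (adjusted p = 2.84e-07). Between PSGL1lo and CD62Llo PSGL1hi cells the log2 difference was 0.12 ± 0.15, with a 95% interval of -0.205 to 0.445 (adjusted p = 0.793). CD62Llo PSGL1hi cells were at -0.47 ± 0.15 against CD62Lhi PSGL1hi cells, which did not pass (adjusted p = 0.237) and did pass without replicate 2 of the PSGL1lo cells (adjusted p = 0.028). The other probe set, 1455439_a_at, gave the same calls against naive cells and a correlation of 0.996 with the first over the 12 arrays. The 5 genes most like Lgals1 among 18193, by Pearson correlation of log2 values over the 12 arrays, were Dstn (0.994), Tspan3 (0.992), Tceal9 (0.985), Cdkn2c (0.983) and Carhsp1 (0.980).

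Galectin-3 RNA did differ with PSGL1. Lgals3 (1426808_at) had ratios of 0.18, 0.198 and 0.145 in naive cells, 3.211, 2.374 and 2.153 in CD62Lhi PSGL1hi cells, 2.051, 1.309 and 1.969 in CD62Llo PSGL1hi cells, and 0.691, 0.234 and 0.389 in PSGL1lo cells. The populations did not overlap, and PSGL1lo arrays lay between naive and PSGL1hi arrays. It was 4.38-fold lower in PSGL1lo than in CD62Llo PSGL1hi cells (log2 -2.13 ± 0.30, adjusted p = 0.000345) and 6.39-fold lower than in CD62Lhi PSGL1hi cells (adjusted p = 3.08e-05). Both PSGL1hi populations were above naive cells, by 10.1-fold (CD62Llo, adjusted p = 2.21e-06) and 14.7-fold (CD62Lhi, adjusted p = 5.44e-07), and they were not called different from each other (log2 -0.54 ± 0.30, adjusted p = 0.65, 95% interval -1.20 to 0.11). PSGL1lo cells were 2.30-fold above naive cells (log2 1.20 ± 0.30, adjusted p = 0.0111). That last call was lost without replicate 3 of the naive cells (adjusted p = 0.0554), and after quantile normalization the log2 difference was 0.06 (adjusted p = 0.963).

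The S100 genes with values, S100a4, S100a6, S100a10 and S100a13, all shared the drop in PSGL1lo cells, and S100a4 and S100a6 had the largest differences from naive cells among the 9 genes. S100A4 binds non-muscle myosin, and S100A6 is also called calcyclin. On mouse chromosome 3 their genes lie in the same cluster with 1 measured gene, S100a5, between them. RefSeq promoters (GRCm38.p6, 250 bases before to 50 after the start) were at hand for 7 of the 10 listed genes, all except Lgals1, S100a10 and Anxa6. They are printed for S100a4 and S100a6, which moved together, for S100a13 of the same cluster, and for Anxa2, with matches to 4 motifs on either strand in capitals: TGTGGT (Runx), GGTGTGA (T-box), TGANTCA (AP-1) and CAGCTG (E-box); none of these matches overlapped. The promoters lie at chr3:90603520-90603819 (plus strand) for S100a4, chr3:90612644-90612943 (plus) for S100a6, chr3:90514185-90514484 (plus) for S100a13 and chr9:69453433-69453732 (plus) for Anxa2.
S100a4: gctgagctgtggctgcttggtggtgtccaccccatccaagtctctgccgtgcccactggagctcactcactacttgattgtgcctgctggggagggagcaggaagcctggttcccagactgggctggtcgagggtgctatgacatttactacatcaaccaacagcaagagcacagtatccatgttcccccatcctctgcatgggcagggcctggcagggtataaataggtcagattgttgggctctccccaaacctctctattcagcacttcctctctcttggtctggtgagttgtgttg
S100a6: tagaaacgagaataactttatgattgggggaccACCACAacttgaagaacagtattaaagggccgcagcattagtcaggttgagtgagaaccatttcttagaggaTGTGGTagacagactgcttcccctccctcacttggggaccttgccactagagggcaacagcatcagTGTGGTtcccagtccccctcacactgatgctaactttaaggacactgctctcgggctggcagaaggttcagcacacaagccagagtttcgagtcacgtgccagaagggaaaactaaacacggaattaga
S100a13: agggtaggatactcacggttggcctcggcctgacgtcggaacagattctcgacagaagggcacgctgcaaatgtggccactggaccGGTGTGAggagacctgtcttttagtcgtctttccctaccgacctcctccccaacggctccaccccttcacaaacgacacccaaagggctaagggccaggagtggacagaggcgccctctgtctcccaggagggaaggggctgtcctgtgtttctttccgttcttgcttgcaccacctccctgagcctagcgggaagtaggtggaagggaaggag
Anxa2: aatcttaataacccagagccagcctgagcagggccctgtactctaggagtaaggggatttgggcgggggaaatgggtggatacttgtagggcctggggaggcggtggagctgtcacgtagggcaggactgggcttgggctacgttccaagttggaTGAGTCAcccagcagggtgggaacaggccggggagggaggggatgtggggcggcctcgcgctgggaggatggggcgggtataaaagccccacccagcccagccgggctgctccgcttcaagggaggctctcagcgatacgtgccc

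The S100a6 promoter held 3 Runx matches, of which the most upstream reads ACCACA on the printed strand, at -217, -145 and -79 from the start. Runx matches were in 16.8% of 32851 RefSeq promoters of this length. S100a13 held 1 T-box match at -164, a motif found in 3.98% of promoters, and Anxa2 held 1 AP-1 match at -95, found in 7.81%. The S100a11 promoter, not printed since that gene has no value here, held 2 AP-1 matches, at -136 and -38. The S100a4 window held none of the 4 motifs, and those of Lgals3 and Anxa1 held none either; E-box letters, in 16.3% of promoters, were in none of the 7. These are matches of letters only, and occupancy was not measured.

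S100a4 (1424542_at) had ratios of 0.0507, 0.0587 and 0.0319 in naive cells, 1.798, 1.52 and 1.37 in CD62Lhi PSGL1hi cells, 2.01, 1.832 and 1.956 in CD62Llo PSGL1hi cells, and 0.563, 0.417 and 0.63 in PSGL1lo cells. S100a6 (1421375_a_at) had 0.0494, 0.0348 and 0.0276 in naive cells, 1.432, 1.6 and 1.476 in CD62Lhi PSGL1hi cells, 1.724, 1.607 and 1.628 in CD62Llo PSGL1hi cells, and 0.501, 0.365 and 0.568 in PSGL1lo cells. For both genes the order was naive, CD62Llo PSGL1lo, CD62Lhi PSGL1hi, CD62Llo PSGL1hi, without overlap, although the highest 2 populations were not called different (adjusted p = 0.711 for S100a4 and 0.9 for S100a6). In PSGL1lo cells, S100a4 was 3.65-fold (log2 -1.87 ± 0.20, adjusted p = 2.61e-05) and S100a6 3.52-fold (log2 -1.81 ± 0.19, adjusted p = 1.84e-05) lower than in CD62Llo PSGL1hi cells. The distance from naive cells was larger still: PSGL1lo cells were 11.6-fold (S100a4) and 12.98-fold (S100a6) higher, CD62Llo PSGL1hi cells 42.3-fold and 45.6-fold higher, and CD62Lhi PSGL1hi cells 34.0-fold and 41.5-fold higher, with adjusted p between 1.66e-10 and 1.15e-08. Over the 12 arrays the correlation of S100a4 and S100a6 was 0.996; S100a6 was the gene most like S100a4 among all 18193, followed by Rnf43 (0.995), Cxcr3 (0.995), Penk (0.992) and Cst7 (0.991).

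S100a10 and S100a13 showed smaller differences. S100a10, the partner of annexin A2, had ratios on 1416762_at of 0.566, 0.504 and 0.424 in naive cells, 1.375, 1.77 and 1.538 in CD62Lhi PSGL1hi cells, 1.342, 1.193 and 1.237 in CD62Llo PSGL1hi cells, and 0.696, 0.494 and 0.807 in PSGL1lo cells. Its PSGL1lo arrays overlapped the naive arrays and lay below all PSGL1hi arrays. S100a10 was 1.93-fold lower in PSGL1lo than in CD62Llo PSGL1hi cells (log2 -0.95 ± 0.17, adjusted p = 0.00183), and 2.54-fold higher in CD62Llo PSGL1hi than in naive cells (adjusted p = 4.01e-05). Against naive cells, PSGL1lo cells were at 0.40 ± 0.17 (adjusted p = 0.116), and this difference passed without their replicate 2 (adjusted p = 0.00699). The other S100a10 probe sets, 1439348_at and 1456642_x_at, were lower in PSGL1lo than in CD62Llo PSGL1hi cells by -1.45 and -0.79. The call of 1456642_x_at was lost without replicate 1 or 3 of the CD62Llo PSGL1hi cells (adjusted p = 0.0684 and 0.0517). In PSGL1lo against naive cells these probe sets were at 0.08 ± 0.18 (adjusted p = 0.827) and 0.19 ± 0.18 (adjusted p = 0.56).

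S100a13, known for its part in the release of growth factors that lack a signal peptide, had ratios on 1418704_at of 0.716, 0.658 and 0.615 in naive cells, 1.442, 1.253 and 1.294 in CD62Lhi PSGL1hi cells, 1.288, 1.044 and 1.12 in CD62Llo PSGL1hi cells, and 0.8, 0.624 and 0.956 in PSGL1lo cells. The PSGL1hi populations overlapped each other, as did PSGL1lo and naive cells. It was 1.47-fold lower in PSGL1lo than in CD62Llo PSGL1hi cells (log2 -0.55 ± 0.14, adjusted p = 0.0247). This call was lost without replicate 2 of the PSGL1lo cells (adjusted p = 0.0757), without replicate 1 or 3 of the CD62Llo PSGL1hi cells (0.123 and 0.0647), and with these 2 populations alone in the fit (0.0952). Against CD62Lhi PSGL1hi cells the log2 difference of PSGL1lo cells was -0.76 ± 0.14 (adjusted p = 0.00202). Both PSGL1hi populations were above naive cells, by 1.73-fold (adjusted p = 0.00106) and 2.01-fold (adjusted p = 0.000149). PSGL1lo cells were at 0.24 ± 0.14 against naive cells (adjusted p = 0.291, and 0.0354 without their replicate 2).

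The neighbours of these genes in the cluster did not share the pattern. S100a5, between S100a4 and S100a6, was called in none of the 6 comparisons, nor were S100a1 and S100a3. S100a14 and S100a16 were lower in CD62Llo PSGL1hi than in naive cells by -0.37 and -0.36 (adjusted p = 0.033 and 0.0302), and both calls were lost without, for example, replicate 3 of the CD62Llo PSGL1hi cells (0.104 and 0.076). S100a8 and S100a9, the calprotectin genes of neutrophils and monocytes, ran the other way: they were lower than in naive cells by -3.99 ± 0.31 and -3.68 ± 0.20 in PSGL1lo cells, -3.76 and -3.89 in CD62Llo PSGL1hi cells, and -3.99 and -3.83 in CD62Lhi PSGL1hi cells (largest adjusted p = 7.02e-07). After quantile normalization the PSGL1lo differences were -3.14 and -2.85, and those of S100a9 in the PSGL1hi populations -3.24 and -3.02, all still called. The S100a8 probe set has a suffix that marks possible cross-hybridisation. No difference of either gene was called between CD44+ populations.

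**Figure D2:**
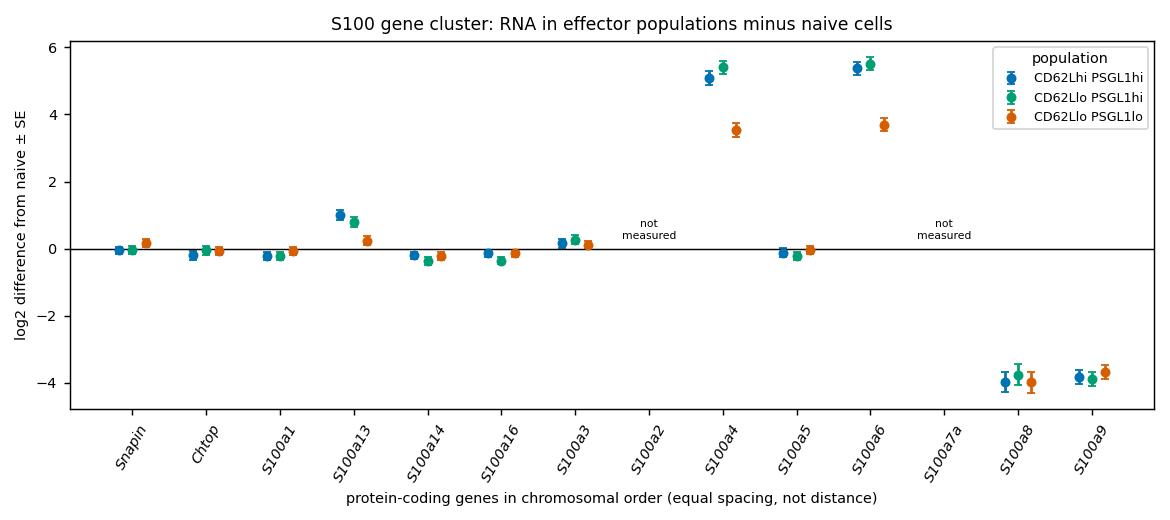
Log2 difference from naive cells ± SE (y axis) for genes of the S100 cluster in chromosomal order with equal spacing (x axis), in CD62Lhi PSGL1hi, CD62Llo PSGL1hi and PSGL1lo cells (n = 3 arrays each). S100a4 and S100a6 are 3.54 to 5.51 above naive cells, S100a5 between them lies near 0, and S100a8 and S100a9 are below naive cells.

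The 3 annexins differed from each other in detail, and the correlation of Anxa1 and Anxa6 over the 12 arrays was 0.75. Annexin A1 is a glucocorticoid-induced protein that signals through formyl peptide receptors, and its RNA was highest in CD62Llo PSGL1hi cells and lowest in PSGL1lo cells. On 1448213_at, Anxa1 had ratios of 1.137, 0.994 and 1.017 in naive cells, 1.006, 0.626 and 0.621 in CD62Lhi PSGL1hi cells, 2.13, 1.349 and 1.756 in CD62Llo PSGL1hi cells, and 0.587, 0.295 and 0.284 in PSGL1lo cells. CD62Llo PSGL1hi arrays lay above all others and PSGL1lo arrays below all others, whereas naive and CD62Lhi PSGL1hi arrays overlapped. Anxa1 was 4.68-fold lower in PSGL1lo than in CD62Llo PSGL1hi cells (log2 -2.23 ± 0.26, adjusted p = 5.71e-05) and 2.86-fold lower than in naive cells (log2 -1.52, adjusted p = 0.000619).

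The other Anxa1 differences were less stable. CD62Llo PSGL1hi cells were 2.35-fold above CD62Lhi PSGL1hi cells (log2 1.23 ± 0.26, adjusted p = 0.033). That call was lost without replicate 1 or 3 of the CD62Llo PSGL1hi cells (adjusted p = 0.162 and 0.113), replicate 2 or 3 of the CD62Lhi PSGL1hi cells (0.11 and 0.14) or any 1 naive array (0.0561 to 0.0604), and the difference was 1.85 after quantile normalization. PSGL1lo cells were 2.00-fold below CD62Lhi PSGL1hi cells (log2 -0.997 ± 0.26, adjusted p = 0.0214). This call was lost without replicate 2 or 3 of the PSGL1lo cells (0.0749 and 0.103), without replicate 1 of the CD62Lhi PSGL1hi cells (0.106), with these 2 populations alone in the fit (0.0957), and after quantile normalization, where the difference was -0.56 (adjusted p = 0.461). Against naive cells, CD62Llo PSGL1hi cells were at 0.71 ± 0.26 (adjusted p = 0.0797) and CD62Lhi PSGL1hi cells at -0.52 ± 0.26 (adjusted p = 0.221). The first passed with these 2 populations alone in the fit (adjusted p = 0.00252) and without replicate 1 of the PSGL1lo cells (0.0169). The second Anxa1 probe set, 1444016_at, showed none of this: its ratios ran from 0.873 to 1.319, it was called in no comparison, and its correlation with 1448213_at was 0.0908, so the result for Anxa1 rests on 1 probe set. The genes most like Anxa1 over the 12 arrays were Spryd7 (0.940), Camk2g (0.937), Gpr65 (0.930), Ppp1r12a (0.917) and Fbxw7 (0.917).

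Annexin A2, which links membranes to actin, followed the S100 genes more closely than the other annexins did: over the 12 arrays its correlation with S100a4 was 0.962, against 0.0769 for Anxa1 and 0.0673 for Anxa6. On 1419091_a_at, Anxa2 had ratios of 0.123, 0.128 and 0.124 in naive cells, 2.26, 2.223 and 1.764 in CD62Lhi PSGL1hi cells, 1.236, 1.093 and 1.125 in CD62Llo PSGL1hi cells, and 0.907, 0.678 and 0.711 in PSGL1lo cells. From high to low the order was CD62Lhi PSGL1hi, CD62Llo PSGL1hi, PSGL1lo and naive, without overlap, and each step was called. CD62Llo PSGL1hi cells were 1.80-fold below CD62Lhi PSGL1hi cells (log2 -0.85 ± 0.13, adjusted p = 0.00282). PSGL1lo cells were a further 1.52-fold lower (log2 -0.60 ± 0.13, adjusted p = 0.0069) and still 6.07-fold above naive cells (log2 2.60 ± 0.13, adjusted p = 2.4e-09). The PSGL1hi populations were 9.20-fold (CD62Llo) and 16.6-fold (CD62Lhi) above naive cells. On 1437692_x_at the order was the same with smaller differences, and neither step among the CD44+ populations was called (-0.35 ± 0.09, adjusted p = 0.128, and -0.28 ± 0.09, adjusted p = 0.105). The third probe set, 1437691_at, was called in no comparison.

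Annexin A6, a larger annexin of the inner membrane face, had its low values in PSGL1lo cells alone among these 4 populations. Anxa6 (1415818_at) had ratios of 0.981, 1.019 and 0.912 in naive cells, 0.845, 1.214 and 1.128 in CD62Lhi PSGL1hi cells, 1.043, 1.044 and 1.219 in CD62Llo PSGL1hi cells, and 0.27, 0.295 and 0.306 in PSGL1lo cells. The highest PSGL1lo array was below the lowest array of every other population. Anxa6 was 3.79-fold lower than in CD62Llo PSGL1hi cells (log2 -1.92 ± 0.13, adjusted p = 3.28e-07), 3.62-fold lower than in CD62Lhi PSGL1hi cells (adjusted p = 2.74e-07) and 3.34-fold lower than in naive cells (adjusted p = 1.75e-07). CD62Llo PSGL1hi cells were at 0.18 ± 0.13 against naive cells (adjusted p = 0.39, 95% interval -0.10 to 0.46) and at 0.07 ± 0.13 against CD62Lhi PSGL1hi cells (adjusted p = 0.94). All 3 further probe sets were called lower in the same comparisons, with differences from CD62Llo PSGL1hi cells of -2.02, -1.82 and -1.24 and correlations with the first of 0.986, 0.966 and 0.949.

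**Figure D3:**
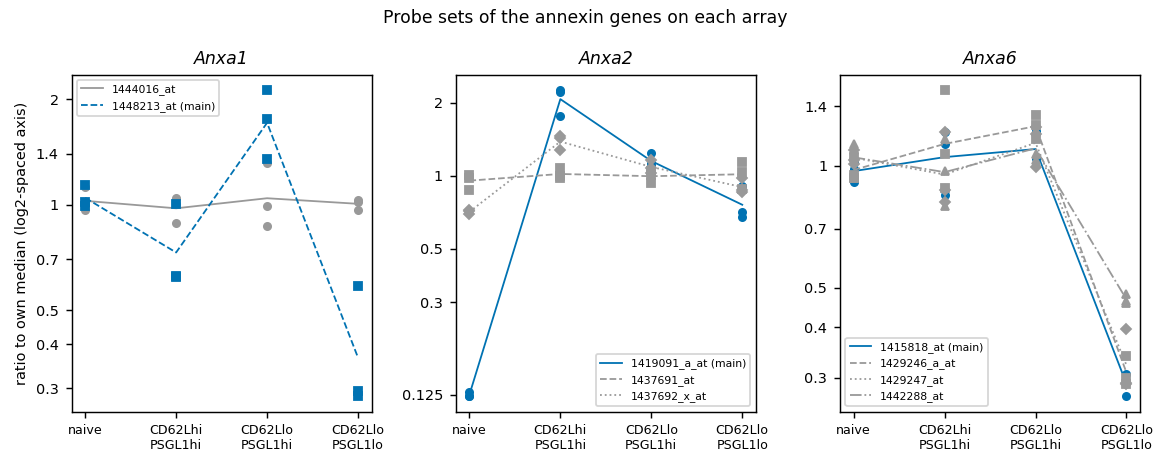
Ratios (y axis, log2-spaced) on every probe set of Anxa1, Anxa2 and Anxa6 in the 4 populations (x axis); points are arrays, lines join means of log2 values (n = 3), and the main probe set is in blue. The 4 Anxa6 probe sets fall together in PSGL1lo cells, whereas 1 probe set each of Anxa1 and Anxa2 stays near 1 throughout.

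Counted over probe sets, 13 of the 18 were lower and 0 higher in PSGL1lo than in CD62Llo PSGL1hi cells, against 4.97% of all probe sets called lower and 3.41% called higher; by the main probe set of each gene, 8 of the 9 were lower, all except Lgals1, against 5.63% of genes called lower and 4.04% higher. The median log2 difference of the 9 genes was -1.81, beside 0.0082 over all genes. Because the genes were chosen with earlier results of these data known, the shares over all probe sets and genes give scale only. They are no test of the genes as a set, here or in the other comparisons. Against CD62Lhi PSGL1hi cells, 14 of 18 were lower and 0 higher in PSGL1lo cells (background 6.27% lower and 5.37% higher), again with 8 of the 9 genes (background 7.45% lower and 5.94% higher); these comparisons share the PSGL1lo arrays. At high PSGL1, low against high CD62L gave 1 probe set higher (Anxa1) and 1 lower (Anxa2), with backgrounds of 0.395% and 0.839% over probe sets and 0.517% and 1.14% over genes. Wherever a count of 0 is given for the 18 probe sets, 0 passed in that direction at an unadjusted p under 0.05 too. The other 7 genes did not pass between low and high CD62L, and their 95% intervals reached from -1.20 (Lgals3) to 0.75 (S100a4).

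**Figure D4:**
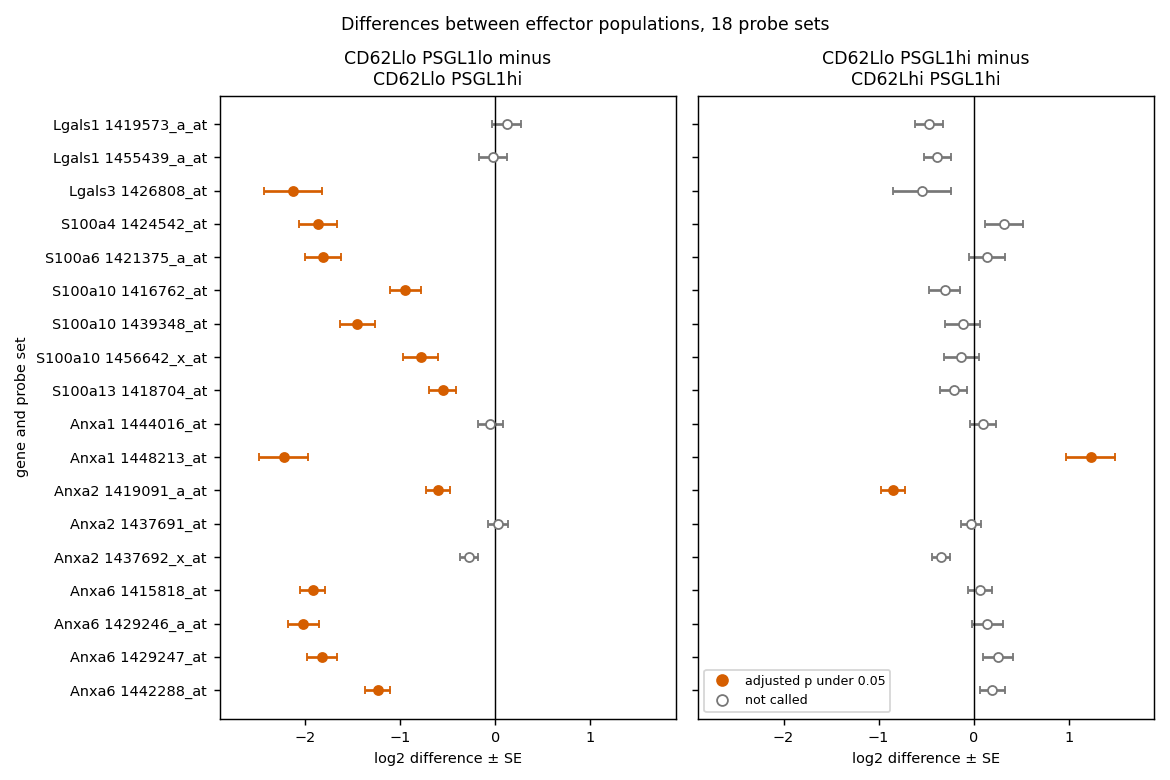
Log2 difference ± SE (x axis) of each of the 18 probe sets (y axis) between PSGL1lo and CD62Llo PSGL1hi cells (left) and between CD62Llo PSGL1hi and CD62Lhi PSGL1hi cells (right), n = 3 arrays per population; filled points were called at an adjusted p under 0.05. In the left panel 13 probe sets lie to the left of 0 and are called, and in the right panel only 1448213_at of Anxa1 and 1419091_a_at of Anxa2 are called.

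Against naive cells, which all 3 comparisons share, CD62Llo PSGL1hi and CD62Lhi PSGL1hi cells each had 11 of 18 probe sets higher and 0 lower (background 9.1% and 8.16%, and 8.6% and 8.66%), and by gene 7 of the 9 were higher, all except Anxa1 and Anxa6 (background over genes 10.1% and 8.99%, and 10% and 9.22%). PSGL1lo cells had 7 higher and 5 lower (background 9.53% and 10.6%): Lgals1, Lgals3, S100a4, S100a6 and Anxa2 rose and Anxa1 and Anxa6 fell, against 10.7% and 11.2% of genes. The sizes of these differences depended on scaling. After quantile normalization, which forces 1 distribution of ratios on all arrays, every fold from naive cells given above for Lgals1, Lgals3, S100a4, S100a6 and Anxa2 was smaller by more than 1.5 times. PSGL1lo cells were then 1.98-fold above naive cells for Lgals1, 2.74-fold for S100a4, 2.88-fold for S100a6 and 2.19-fold for Anxa2. CD62Llo PSGL1hi cells were 1.80-fold above them for Lgals1, 5.19-fold for Lgals3, 12.99-fold for S100a4, 12.2-fold for S100a6 and 3.35-fold for Anxa2. CD62Lhi PSGL1hi cells were 2.62-fold, 7.68-fold, 8.63-fold, 9.57-fold and 6.66-fold above them for the same 5 genes. All of these were still called.

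Other members of these families were called mainly against naive cells. Between PSGL1lo and CD62Llo PSGL1hi cells 0 of 9 other galectin genes, 0 of 10 other S100 genes and 0 of 8 other annexins were called by limma, with 2, 1 and 2 of them at an unadjusted p under 0.05. The annexin count turned on the model: Anxa4, at -0.68 ± 0.20, was just outside the threshold (adjusted p = 0.0502) and was called with same-numbered arrays as a block (adjusted p = 0.000837), with array medians set equal (0.0422), after quantile normalization (0.0494), with 1 probe set per gene (0.0294), with robust eBayes (0.0466), and without replicate 1 of the PSGL1lo cells (0.0151) or of the CD62Lhi PSGL1hi cells (0.0369). Its other probe sets were not called there (adjusted p = 0.0652 and 0.393). Against naive cells, 1 of the 9 galectin genes was higher in each CD44+ population, and 2 were lower in PSGL1lo, 2 in CD62Llo PSGL1hi and 3 in CD62Lhi PSGL1hi cells. Of the 10 S100 genes, 2, 4 and 2 were lower, and of the 8 annexins 1, 2 and 2 were higher, with 1 lower in CD62Llo PSGL1hi cells. The shares over all genes were those given above for these comparisons, between 10% and 10.7% higher and between 8.99% and 11.2% lower.

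Lgalsl, a galectin-like gene, was higher than in naive cells by 2.58 ± 0.22 in PSGL1lo, 2.58 in CD62Llo PSGL1hi and 2.78 in CD62Lhi PSGL1hi cells (largest adjusted p = 1.08e-06); after quantile normalization these lay between 1.37 and 1.63, still called. Lgals9, encoding a galectin that binds TIM-3, was lower by -1.08 ± 0.13, -0.90 and -0.88 (largest adjusted p = 0.000191): its ratios were 2.047, 1.981 and 1.563 in naive cells and at most 1.174 elsewhere. Grifin, a galectin-related gene of the lens, was lower by -0.78 ± 0.13, -0.56 and -0.55 (largest adjusted p = 0.00691). Lgals3bp, which encodes a glycoprotein that binds galectin-3, was lower in CD62Lhi PSGL1hi cells by -0.57 ± 0.14 (adjusted p = 0.0132), a call lost without replicate 1 of these cells (0.0668) or replicate 2 of the naive cells (0.0521).

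The means of Anxa4 stood in the same order as those of Anxa2. It was higher than in naive cells by 1.74 ± 0.20 in PSGL1lo, 2.42 in CD62Llo PSGL1hi and 2.78 in CD62Lhi PSGL1hi cells (0.72, 1.47 and 1.86 after quantile normalization), and lower in PSGL1lo than in CD62Lhi PSGL1hi cells by -1.04 ± 0.20 (adjusted p = 0.00253). Anxa7 was higher in CD62Llo PSGL1hi and CD62Lhi PSGL1hi cells than in naive cells by 0.55 ± 0.15 and 0.52 ± 0.15 (adjusted p = 0.0203 and 0.0282), and both calls were lost without, for example, replicate 3 of the naive cells (0.108 and 0.142). Anxa3 was lower in CD62Llo PSGL1hi cells by -0.37 ± 0.12 (adjusted p = 0.0481), and that call was lost without any 1 array of these cells (0.0837 to 0.124) and after quantile normalization (0.0701), among other settings.

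Of 11 genes for partners of S100 proteins and annexins, each counted by its main probe set, 0 were called by limma between CD44+ populations. At an unadjusted p under 0.05, 1 passed in PSGL1lo against CD62Llo PSGL1hi and 2 in PSGL1lo against CD62Lhi PSGL1hi cells. In CD62Llo PSGL1hi against CD62Lhi PSGL1hi cells 0 passed. Tlr4, a receptor for S100A8 and S100A9, was at 0.65 ± 0.23 in PSGL1lo against CD62Lhi PSGL1hi cells (adjusted p = 0.0974). It was called there with same-numbered arrays as a block (adjusted p = 0.00559), without replicate 2 of the PSGL1lo cells (0.0448) and without replicate 1 of the CD62Lhi PSGL1hi cells (0.032). In PSGL1lo against naive cells 1 of the 11 was higher (Tlr4, 1.55 ± 0.23) and 3 lower, among them Fpr2, an annexin A1 receptor (-1.01 ± 0.19, adjusted p = 0.00122). The other 3 Tlr4 probe sets differed less, at 0.44 (adjusted p = 0.0403), 0.23 and -0.07 in that comparison. For Ahnak, also among the 11, 1 probe set outside these counts differed from its main one. Its ratios were 0.69, 0.801 and 0.935 in PSGL1lo cells and 1.398, 1.419 and 1.318 in CD62Llo PSGL1hi cells. Naive arrays were at 0.0762, 0.0813 and 0.08. On the other Ahnak probe sets, the main one included, PSGL1lo and naive arrays overlapped.

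Of 17 enzymes that build the sugar chains galectins bind, 5 were lower, 3 higher and 9 not called in PSGL1lo against CD62Llo PSGL1hi cells, beside 5.63% of all genes lower and 4.04% higher. With same-numbered arrays as a block 7 were lower, St3gal4 and Mgat2 in addition (adjusted p = 0.00673 and 0.0177). St3gal6, a sialyltransferase that helps to make selectin ligands, had ratios of 0.0583, 0.0541 and 0.0492 in PSGL1lo cells and 2.226, 1.569 and 2.202 in CD62Llo PSGL1hi cells, a difference of -5.20 ± 0.17 (adjusted p = 4.52e-10) without overlap. The naive arrays, at 0.679, 0.524 and 0.637, lay between them. Of the 4 further St3gal6 probe sets, 1 was lower by -4.27 (adjusted p = 1.37e-10) and the other 3 were not called. Man1a, a mannosidase of N-glycan trimming, was lower by -1.56 ± 0.14, Gcnt1, which starts the core 2 branch of O-glycans, by -1.34 ± 0.19, Mgat4a, a branching enzyme of N-glycans, by -0.76 ± 0.11 (its second probe set, at 0.14, was not called), and B4galt1, a galactosyltransferase, by -0.61 ± 0.09.

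The 3 enzymes that were higher in PSGL1lo than in CD62Llo PSGL1hi cells were St3gal1, a sialyltransferase of O-glycans, by 0.97 ± 0.18 (adjusted p = 0.00244), B3gnt2, which extends poly-N-acetyllactosamine chains, by 0.91 ± 0.18 (adjusted p = 0.00531), and St6gal1, a sialyltransferase of N-glycans, by 0.68 ± 0.17 (adjusted p = 0.0198). The St6gal1 call was lost without replicate 1 or 2 of the PSGL1lo cells (adjusted p = 0.0718 and 0.0696), without replicate 1 or 3 of the CD62Llo PSGL1hi cells (0.0893 and 0.0696) and with these 2 populations alone in the fit (0.0803). A second probe set of each was also called higher, by 0.74 for St3gal1, 0.53 for B3gnt2 and 0.65 for St6gal1. Against naive cells Gcnt1 was higher in CD62Llo PSGL1hi and CD62Lhi PSGL1hi cells by 2.16 ± 0.19 and 2.35 ± 0.19.

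Of 13 genes for glycoproteins bound by galectins, 3 were lower and 1 higher in PSGL1lo than in CD62Llo PSGL1hi cells, beside the same shares over all genes. Havcr2, which encodes TIM-3, had ratios of 0.233, 0.183 and 0.228 in PSGL1lo cells and 4.573, 3.153 and 3.375 in CD62Llo PSGL1hi cells, a difference of -4.10 ± 0.16 (adjusted p = 2.14e-09). Its naive arrays were at 0.149, 0.15 and 0.154, and PSGL1lo cells were above them by 0.50 ± 0.16 (adjusted p = 0.045), a call lost in several settings and at -0.56 after quantile normalization (adjusted p = 0.128). Cd7, a galectin-1 receptor, was lower by -1.75 ± 0.20 and Spn, which encodes CD43, by -0.72 ± 0.11. The gene that was higher was Lamp1, a lysosomal membrane glycoprotein, by 0.47 ± 0.13 (adjusted p = 0.0313). That call was lost without replicate 1 or 3 of the PSGL1lo cells or replicate 2 or 3 of the CD62Llo PSGL1hi cells, and with these 2 populations alone in the fit (adjusted p = 0.0835 to 0.133). With same-numbered arrays as a block Lamp2 was called higher too (0.58, adjusted p = 0.0161). Lag3, Itgb1 and Ctla4 were higher than in naive cells in all CD44+ populations, in PSGL1lo cells by 4.11 ± 0.14, 3.61 ± 0.18 and 3.18 ± 0.13, and by 2.14, 1.94 and 1.73 after quantile normalization.

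Markers of other cells moved with some of these comparisons, and their part in the results was not tested. The mean ratio of 7 NK and CD8 T cell markers was 0.616 to 0.748 on PSGL1lo arrays and 1.03 to 1.6 on CD62Llo PSGL1hi arrays, with 2 of 7 called lower. That of 8 stromal and endothelial markers was 1.06 to 1.1 against 0.881 to 0.965, with 2 of 8 called higher, and that of 7 T cell markers 0.84 to 1.05 against 1.08 to 1.14, with 1 of 7 (Thy1) called lower. Over all genes, 5.63% were called lower and 4.04% higher in this comparison. A mean ratio can rest on a few genes. The median log2 differences of these lists, in the order given, were -0.104, 0.0598 and -0.0774, beside 0.0082 over all genes. For 15 macrophage, monocyte and neutrophil markers, cells that also express galectin-3, S100 proteins and annexins, the mean ratio was 2.58 to 2.7 on naive arrays and 0.938 to 1.46 on the others. Without S100a8 and S100a9 the other 13 were at 1.01 to 1.05 on naive arrays, 1.01 to 1.47 on PSGL1lo arrays, 0.977 to 1.18 on CD62Llo PSGL1hi arrays and 1.05 to 1.2 on CD62Lhi PSGL1hi arrays. Between PSGL1lo and CD62Llo PSGL1hi cells 1 of the 15 was higher and 1 lower. Against naive cells 5 of the 15 were lower and 3 higher in PSGL1lo cells. In each PSGL1hi population 4 were lower and 2 higher than in naive cells. S100a8 and S100a9 were among the lower ones each time. The shares over all genes were between 8.99% and 11.2% lower and between 10% and 10.7% higher. Plasma cell markers (4) were at 0.66 to 0.688 on naive arrays, 0.866 to 1.14 on PSGL1lo arrays, 1.05 to 1.27 on CD62Llo PSGL1hi arrays and 1.28 to 1.82 on CD62Lhi PSGL1hi arrays. B cell markers (8) were at 0.869 to 1.16, dendritic cell markers (6) at 0.908 to 1.15, and erythroid and platelet markers (6) at 1.12 to 1.13 on naive arrays and 0.931 to 1.06 on the others. Of the 8 B cell markers, 2 were called lower and 0 higher in PSGL1lo than in CD62Llo PSGL1hi cells. Against naive cells 3, 1 and 0 were lower and 1, 2 and 2 higher in PSGL1lo, CD62Llo PSGL1hi and CD62Lhi PSGL1hi cells. Plasma cell, dendritic cell, and erythroid and platelet markers had 0 called between PSGL1lo and CD62Llo PSGL1hi cells. Ratios cannot show whether a marker was near 0.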

How the data were processed

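Per the submitters' processing notes the signals came from MAS5, for which no version or target value is named. The authors deposited linear ratios: the median over the 12 arrays was within 0.002 of 1 for 99.7% of probe sets. The 3 arrays per population limit the precision, with a median SE of 0.12 on the log2 scale. Signal over background is unknown.

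Of 45101 probe sets, 64 controls were left out. Log2 ratios were fitted with limma 3.58.1 (R 4.3.3; lmFit, eBayes) on all 12 arrays with 1 mean per population, 8 residual and 5.54 prior degrees of freedom, for an F test and 6 two-sided pairwise comparisons. No scaling, filter or pseudocount was used. The members and lists were chosen with earlier results of these data known. Named were all listed genes, and the 5 genes most correlated with Lgals1, S100a4 and Anxa1. In each list, up to 4 called genes with the smallest p in a comparison were picked for naming. Further list genes were named outside that rule: other called genes, genes called only in alternative fits, and genes with another probe set that differed. The main probe set per gene was picked by annotation, preferring no _s_at or _x_at suffix, then a curated RefSeq target, then the lowest number. The text describes a selection of the list genes. Cluster neighbours come from RefSeq gene order.

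Tested on simulated data for CD62Llo PSGL1lo against CD62Llo PSGL1hi over 45037 probe sets, the fit called 37.3% of changes of 0.5, 88.1% of changes of 1 and 100% of changes of 2 (log2). The simulated noise was independent between arrays, so these shares do not cover the shared deviations described next. Same-numbered arrays of CD44+ populations deviated together (correlations of 0.138 to 0.451 over probe sets), which pairs them; those with naive arrays ranged from -0.0817 to 0.157 and show no pairing. Arrays of 1 population differed by 0.174 to 0.38 (root mean square, log2), so none was a copy of another. Alternatives were array medians set equal, quantile normalization, 1 probe set per gene, robust eBayes, each array left out, a replicate block and only the compared populations in the fit.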

Additional observations from a re-analysis of the deposited data

How the results depend on the processing

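No probe set of the 9 genes turned its direction in a called comparison: of 1890 recomputed differences, 1086 kept call and direction, 24 lost the call, 11 gained it and 769 were called in neither fit, of which 27 changed sign. Of 7344 recomputed differences of the list genes, 109 of the 1980 called lost the call and 75 of the 5364 not called gained it; 1 further call, that of Havcr2 in CD62Llo PSGL1lo against naive cells, was lost with a change of sign. With 1 probe set per gene, so 9 tested instead of 18, the calls among them were 8 (CD62Llo PSGL1lo against CD62Llo PSGL1hi), 8 (against CD62Lhi PSGL1hi), 7, 7 and 7 (the 3 comparisons with naive cells) and 9 (F test). Leaving out 1 array gave 11 to 13, 1 to 3 (low against high CD62L), 13 to 15, 11 to 14, 11 to 12, 11 to 11 and 16 to 16 of 18. The replicate block left 13, 2 and 14 calls among CD44+ populations. In the comparisons with naive cells, where numbers did not pair, it gave 12, 12 and 12, and Anxa1 then passed in CD62Llo PSGL1hi (adjusted p = 0.00313) and CD62Lhi PSGL1hi cells (0.0232).

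Over all probe sets, low against high CD62L gave 556 calls, 893 after quantile normalization, 364 to 714 leaving out 1 array, 1089 with the replicate block and 368 with these 2 populations alone. CD62Llo PSGL1lo against CD62Lhi PSGL1hi gave 5242 and, with these 2 alone, 3274. The cause of these shifts was not tested. Fits that left out an array or a population also held fewer arrays, and the part of this was not separated. With 3 arrays per population and no outlier test at that size, small differences and single low arrays cannot be judged.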
